A study of Homo sapiens with 4 samples.

Results

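The integrated stress response is described here through 10 genes chosen by name, ATF4, ATF3, DDIT3, CEBPB, TRIB3, PPP1R15A, ASNS, CHAC1, SESN2 and DDIT4, of 18131 genes listed in 4 single-cell libraries of HCC1143. All 10 were listed in every library. They were chosen with earlier results of these data known, and the contrast of paclitaxel with DMSO at 72 h was part of that choice. Counts and ranks of the members in that contrast therefore partly restate the choice. HCC1143 is an established human cell line from a triple-negative breast carcinoma. The groups were cells in 1 nM paclitaxel for 72 h, cells in DMSO for 72 h, cells in paclitaxel for 24 h and cells in DMSO for 24 h, and each group was 1 library. Paclitaxel binds and stabilises microtubules, and DMSO is its solvent. No test across samples was possible with 1 library a group, and no difference had a replicate check. The intervals below are 95% intervals that cover counting error only, and all are exact except those for differences of ratios.

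In the integrated stress response, kinases that sense misfolded protein, missing amino acids, viral RNA or haem deficiency phosphorylate the translation factor eIF2. General translation then slows while the mRNA of the transcription factor ATF4 is translated better, so ATF4 is controlled to a large degree after transcription. ATF4 and its partners switch on genes of amino acid supply, of feedback on eIF2 phosphorylation and, in prolonged stress, of cell death.

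The promoters of the members are shown first, because ATF4 and its partners act through DNA elements near start sites. RefSeq on GRCh38.p14 gave 17 start sites for the 10 members, each with a window of 250 bases before to 50 bases after the start. Both strands were searched for TGATGNAA, the core of the element bound by ATF4 with a C/EBP partner, and for TGACGTCA, the cyclic AMP response element that ATF family factors bind. TGATGNAA was found in 3 of the 17 windows, 1 of ATF3, 1 of ASNS and that of CHAC1. Of all 35116 windows of the same length, 3.62% held it. The other ATF3 window (chr1:212614768-212615067) and the other ASNS window (chr7:97872116-97872415) held neither motif. Some windows of the same gene overlapped. TGACGTCA was found in 1 window, that of PPP1R15A, against 1.85% of all windows. A match is a description of letters, and its use in these cells was not measured. The 4 windows follow 5′ to 3′, with the matched motif in capitals. The CHAC1 match is TGATGNAA read on the opposite strand.
ATF3 promoter, chr1:212565157-212565456, plus strand: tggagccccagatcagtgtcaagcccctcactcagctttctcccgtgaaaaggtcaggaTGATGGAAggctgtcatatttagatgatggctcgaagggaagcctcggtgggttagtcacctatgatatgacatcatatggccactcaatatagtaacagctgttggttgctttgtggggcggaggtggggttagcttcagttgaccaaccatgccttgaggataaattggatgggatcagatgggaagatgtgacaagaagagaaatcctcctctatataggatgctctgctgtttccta
ASNS promoter, chr7:97872359-97872658, minus strand: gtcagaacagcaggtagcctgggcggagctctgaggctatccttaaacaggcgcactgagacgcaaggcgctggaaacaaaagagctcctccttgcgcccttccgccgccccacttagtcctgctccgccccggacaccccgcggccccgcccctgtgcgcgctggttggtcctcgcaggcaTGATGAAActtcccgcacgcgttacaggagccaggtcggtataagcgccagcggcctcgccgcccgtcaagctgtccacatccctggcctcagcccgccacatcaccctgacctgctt
CHAC1 promoter, chr15:40953221-40953520, plus strand: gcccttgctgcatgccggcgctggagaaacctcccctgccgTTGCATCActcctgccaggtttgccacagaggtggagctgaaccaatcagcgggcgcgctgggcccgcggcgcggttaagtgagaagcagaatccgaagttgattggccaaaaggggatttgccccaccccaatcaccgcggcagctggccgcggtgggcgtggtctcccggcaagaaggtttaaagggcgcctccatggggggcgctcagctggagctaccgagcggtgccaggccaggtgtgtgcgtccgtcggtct
PPP1R15A promoter, chr19:48872171-48872470, plus strand: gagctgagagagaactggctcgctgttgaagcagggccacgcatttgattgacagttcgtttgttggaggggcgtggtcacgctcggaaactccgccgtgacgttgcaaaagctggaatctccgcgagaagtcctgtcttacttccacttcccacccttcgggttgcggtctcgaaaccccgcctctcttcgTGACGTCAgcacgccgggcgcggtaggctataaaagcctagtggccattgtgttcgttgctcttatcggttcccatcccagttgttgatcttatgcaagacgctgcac
The matches lay at positions -191 to -184 in ATF3, -68 to -61 in ASNS, -209 to -202 in CHAC1 and -58 to -51 in PPP1R15A, counted from the start site.

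The kept cells numbered 520 in 72 h paclitaxel, 783 in 72 h DMSO, 776 in 24 h paclitaxel and 1101 in 24 h DMSO. They held between 34850724 and 72024235 UMIs per library, with medians of 54864 to 59670 UMIs per cell. The median ribosomal protein share of a cell's UMIs was 27.4% in 72 h paclitaxel, 40.5% in 72 h DMSO, 33.1% in 24 h paclitaxel and 27.0% in 24 h DMSO. Cells with under 2% mitochondrial UMIs made up 9.81% of the kept cells in 72 h paclitaxel and 1.40% in 72 h DMSO. At 24 h they made up 0.773% in paclitaxel and 0.545% in DMSO. Of the cell barcodes, 4 were shared between the 2 libraries at 24 h and 3 between the 2 DMSO libraries. All 8 epithelial markers were listed in every library, ESR1 was under 1 CPM in each, and PGR was not listed. Of 9 markers of other cell types, 5 were listed in 72 h paclitaxel, 4 in 72 h DMSO, 4 in 24 h paclitaxel and 3 in 24 h DMSO. Their summed level was 34.8 CPM in 72 h paclitaxel, against 16.9 to 18.1 CPM in the other libraries, and lay mostly in CD68 and COL1A1. The T cell marker CD3E, the endothelial marker PECAM1 and the fibroblast markers COL3A1 and DCN were not listed in any library. The endothelial marker VWF was listed in each library, at 0.278 to 0.488 CPM. The leukocyte marker PTPRC was listed in 72 h paclitaxel alone, at 0.287 CPM. LYZ, also a leukocyte marker, was listed in every library but 24 h DMSO, at 0.264 to 0.545 CPM. The part of these markers in the results was not tested.

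Paclitaxel at 72 h held the highest level of all 10 members, and 72 h DMSO held the lowest level of 8 of them. The exceptions were CEBPB and DDIT4, which were lowest in 24 h DMSO. Levels are UMIs per 1000000 UMIs of the library (CPM), and the count of 8 rests on that scaling. Relative to the median gene, ATF4 (0.31 on the log2 scale) and SESN2 (0.30) were higher in 72 h DMSO than in 24 h DMSO. A level over all cells cannot tell more cells with a transcript from more transcript per cell. The shares of cells further on cannot separate them either, since at few UMIs per cell a share rises with the mean.

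ATF3, a stress-induced transcription factor that represses and activates targets of the response, lies on chromosome 1 at 212565334-212620777 (GENCODE 29 on GRCh38, plus strand). Its level was 83.0 CPM (80.0 to 86.1) in 72 h paclitaxel and 8.15 CPM (7.37 to 8.98) in 72 h DMSO. At 24 h it was 19.8 CPM (18.6 to 21.0) in paclitaxel and 15.1 CPM (14.2 to 16.0) in DMSO. The paclitaxel library at 72 h thus stood above the other 3, the DMSO library at 72 h stood below them, and no intervals overlapped. DDIT3, which encodes the pro-apoptotic factor CHOP, lies on chromosome 12 at 57516588-57521737 on the minus strand. Its level was 71.3 CPM (68.6 to 74.2) in 72 h paclitaxel, against 13.7 CPM (12.7 to 14.8) in 72 h DMSO. At 24 h DDIT3 was at 22.2 CPM (21.0 to 23.5) in paclitaxel and 19.7 CPM (18.7 to 20.8) in DMSO, again with the order of ATF3 and with no overlap.

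ATF4, the factor whose translation drives the response, lies on chromosome 22 at 39519695-39522685. Its level was 568 CPM in 72 h paclitaxel and 419.9 CPM in 72 h DMSO, and at 24 h it was 463 CPM in paclitaxel and 449 CPM in DMSO. As ratios, the 4 libraries of ATF4 lay closer together than those of ATF3 and DDIT3. CEBPB, a bZIP factor that pairs with ATF4, lies on chromosome 20 at 50190734-50192689. It stood at 190.0 CPM in 72 h paclitaxel, 120.5 CPM in 72 h DMSO, 139.6 CPM in 24 h paclitaxel and 89.5 CPM in 24 h DMSO. CEBPB was higher in the paclitaxel library of each time and higher at 72 h than at 24 h within each treatment.

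The feedback members curb the response. TRIB3, on chromosome 20 at 362835-397559, encodes a pseudokinase that binds and restrains ATF4 and CHOP. It was at 70.5 CPM in 72 h paclitaxel and 35.0 CPM in 72 h DMSO. At 24 h TRIB3 was at 50.03 CPM (48.2 to 51.9) in paclitaxel and 52.4 CPM (50.8 to 54.1) in DMSO, and these intervals overlapped. PPP1R15A, on chromosome 19 at 48872392-48876057, encodes GADD34, which brings a phosphatase to eIF2. It was at 81.9 CPM in 72 h paclitaxel and 21.9 CPM in 72 h DMSO. At 24 h PPP1R15A was at 29.2 CPM in paclitaxel and 29.4 CPM in DMSO, with overlapping intervals.

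Among the effectors, ASNS makes asparagine and lies on chromosome 7 at 97852118-97872542. It was at 32.4 CPM in 72 h paclitaxel and 7.96 CPM in 72 h DMSO, and at 24 h it was at 20.6 CPM in paclitaxel and 13.1 CPM in DMSO. CHAC1, on chromosome 15 at 40952962-40956519, encodes an enzyme that degrades glutathione. CHAC1 was at 9.78 CPM (341 UMIs) in 72 h paclitaxel, 1.71 CPM (84 UMIs) in 72 h DMSO, 4.85 CPM in 24 h paclitaxel and 3.39 CPM in 24 h DMSO. ASNS and CHAC1 shared 1 order of libraries, which was also that of ATF3 and DDIT3.

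SESN2 and DDIT4 both restrain the growth kinase complex mTORC1. SESN2, on chromosome 1 at 28259527-28282491, was at 10.5 CPM in 72 h paclitaxel and 4.23 CPM (3.67 to 4.84) in 72 h DMSO. At 24 h SESN2 was at 4.79 CPM (4.23 to 5.40) in paclitaxel and 4.57 CPM (4.09 to 5.09) in DMSO, so the libraries other than 72 h paclitaxel overlapped. DDIT4, on chromosome 10 at 72273920-72276036, was at 129.6 CPM in 72 h paclitaxel, 54.4 CPM in 72 h DMSO, 45.7 CPM in 24 h paclitaxel and 31.4 CPM in 24 h DMSO. DDIT4 was the member whose level in 72 h DMSO exceeded both levels at 24 h.

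**Figure D1:**
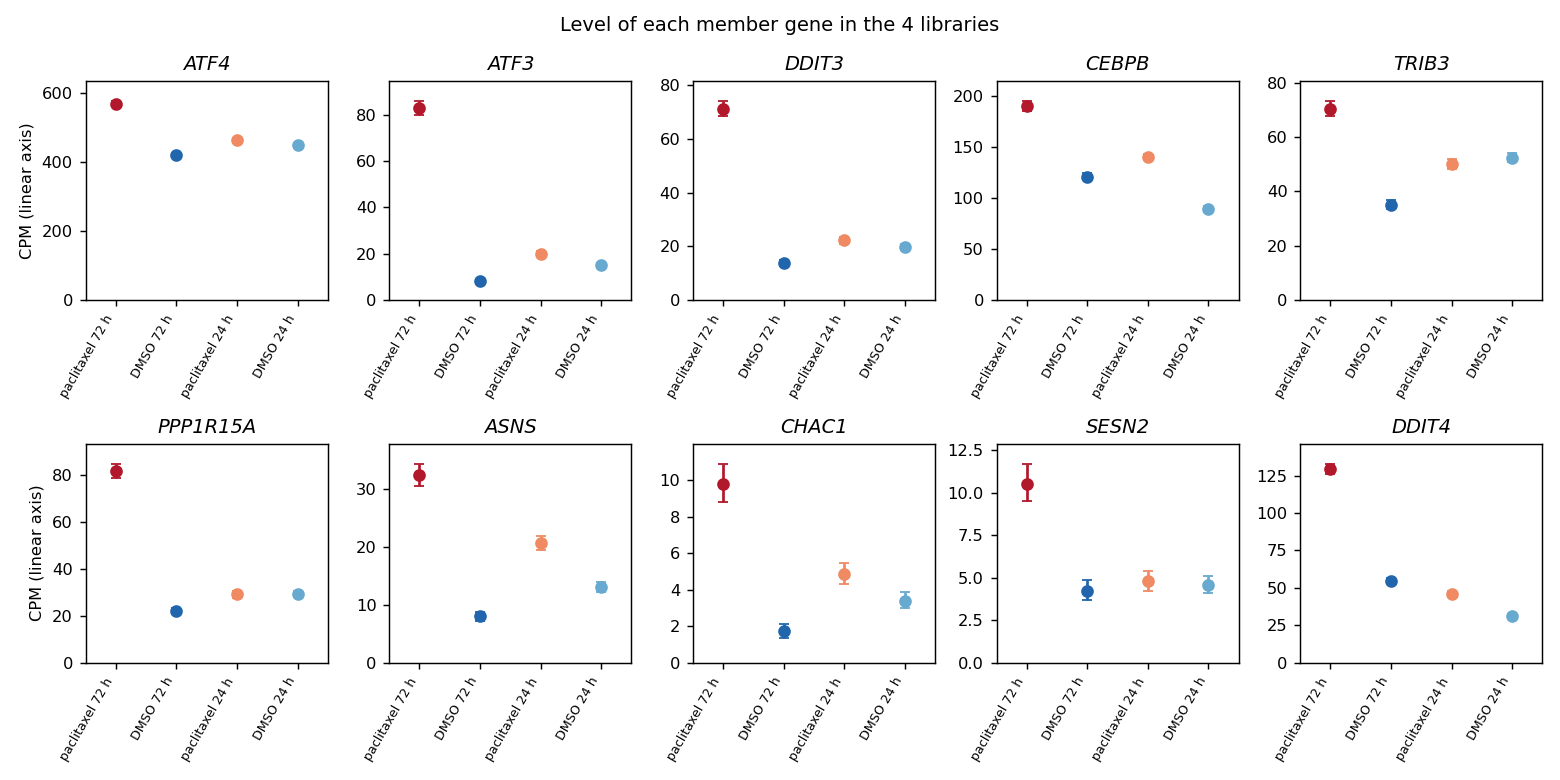
Level of each member in UMIs per 1000000 UMIs (CPM, linear axes from 0) in each library. Dots are libraries and bars are exact 95% Poisson intervals; 72 h paclitaxel is highest in all 10 panels.

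The first comparison asks how the members differed between paclitaxel and DMSO after 72 h. Since scaling to the total shifts all genes together, log2 ratios are given relative to their median over every gene that averaged 50 CPM or more in the pair. That median was 0.32 at 72 h and -0.14 at 24 h. A gene was called when it had a mean of at least 10 CPM, a relative ratio of at least 1.5-fold and an interval that excluded 0. Higher in 72 h paclitaxel were 6 of the 10 members, ATF3, DDIT3, PPP1R15A, ASNS, DDIT4 and TRIB3, and none was lower. Of all 8306 genes with at least 10 CPM, 9.94% were called higher and 9.49% lower. Without subtraction of the median, 25.2% of genes were called higher and 2.13% lower, and 7 members were higher, with CEBPB added at 0.66. CHAC1 and SESN2 missed the mean of 10 CPM and could not be called. ATF3 and ASNS reached the minimum through the paclitaxel library, being under 10 CPM in DMSO.

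ATF3 had a relative log2 ratio of 3.03 (2.88 to 3.18), which is 8.16-fold and rank 11 among the 8306 genes. DDIT3 had 2.06 (1.93 to 2.18), or 4.16-fold, at rank 35. ASNS had 1.70 (1.54 to 1.87), at rank 58, and PPP1R15A had 1.58 (1.48 to 1.68), at rank 65. These 4 genes thus lay among the 65 genes with the highest relative ratios. The ranks come from the contrast that was part of the choice of members, so they are a description and no independent support. ATF3 and ASNS entered the ranking through the paclitaxel library. DDIT4 had 0.93 (0.86 to 1.00) and TRIB3 had 0.69 (0.60 to 0.78), while CEBPB, at 0.34, and ATF4, at 0.12 (0.09 to 0.14), stayed under 1.5-fold. The relative log2 ratios of the uncallable members were 2.20 (1.85 to 2.56) for CHAC1 and 1.00 (0.75 to 1.25) for SESN2.

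The ribosomal share differed between the 2 libraries at 72 h, as given above. Among cells with 30% to 36% ribosomal UMIs, 117 in paclitaxel and 113 in 72 h DMSO, the relative log2 ratios were 2.45 for ATF3, 1.83 for DDIT3, 1.84 for ASNS, 1.53 for PPP1R15A and 1.47 for DDIT4. CEBPB passed 1.5-fold in those cells at 0.69, and TRIB3 no longer did at 0.31. This band was chosen after the data had been seen. With cells limited to 2% to 15% mitochondrial UMIs and at least 2000 genes, ATF3 stayed within the interval given above and the ratios were 1.93 for DDIT3, 1.53 for ASNS and 1.45 for PPP1R15A.

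At 24 h the paclitaxel library was higher than the DMSO library for 3 of the 10 members, ASNS, CEBPB and DDIT4, and lower for none. Of all 8096 genes, 6.35% were called higher and 1.22% lower. Their relative log2 ratios were 0.80 (0.67 to 0.92) for ASNS, 0.78 (0.73 to 0.83) for CEBPB and 0.68 (0.60 to 0.76) for DDIT4. ATF3, at 0.53 (0.41 to 0.65), and DDIT3, at 0.31 (0.20 to 0.42), lay above 0 but under 1.5-fold. Among cells with 30% to 36% ribosomal UMIs, a band chosen after the data had been seen, ATF3 was called higher at 0.70. ASNS (0.50) and DDIT4 (0.36) lost their calls in that band. It had 2 members called higher, against 6.53% of all genes. ATF4, PPP1R15A and TRIB3 lay between 0.07 and 0.19. Over 13 alternatives of scaling or cells the call held in 13 for CEBPB, 10 for ASNS (lowest 0.49) and 9 for DDIT4 (lowest 0.36).

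The drug ratio at 72 h minus that at 24 h was 2.50 log2 units (2.31 to 2.69) for ATF3, 1.75 (1.58 to 1.91) for DDIT3, 1.46 for PPP1R15A and 0.91 for ASNS. For ATF4 the difference was -0.07 (-0.11 to -0.03) and for CEBPB it was -0.45 (-0.52 to -0.38). The sign for CEBPB and ATF4 turns with the scaling: without subtraction of the medians, the log2 ratio of ATF4 was 0.44 at 72 h and 0.05 at 24 h, and that of CEBPB 0.66 at 72 h and 0.64 at 24 h. The other 8 members had the larger drug ratio at 72 h on either scale. These intervals come from a normal approximation to the counts, and the spread of the difference between cultures is unknown.

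**Figure D2:**
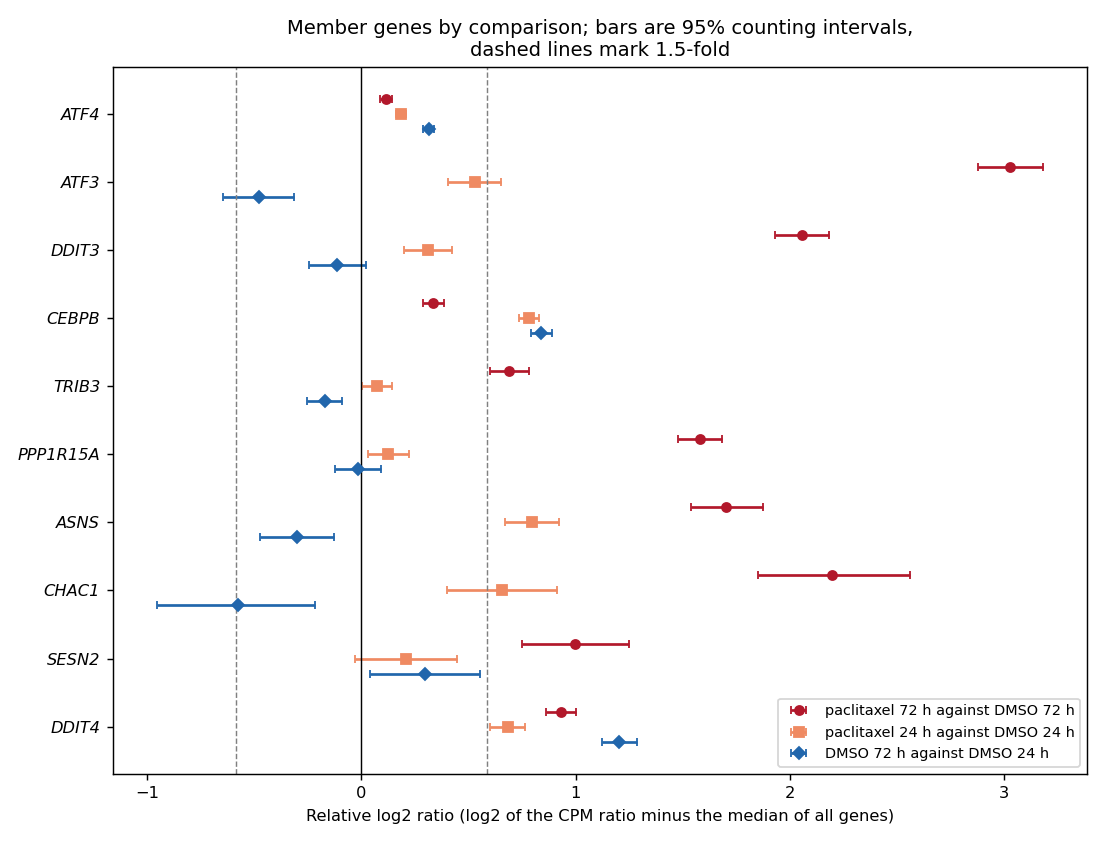
Relative log2 ratio of each member in 3 comparisons, with exact 95% intervals that cover counting error; the dashed lines mark 1.5-fold. At 72 h ATF3 lies at 3.03 and ATF4 at 0.12, and at 24 h no member exceeds 0.80.

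Both libraries of a pair contribute to its ratio, so the DMSO libraries were compared with each other. In 72 h DMSO relative to 24 h DMSO, ATF3 had a relative log2 ratio of -0.48 (-0.65 to -0.31), DDIT3 of -0.11 (-0.25 to 0.02) and ASNS of -0.30 (-0.48 to -0.13), all under 1.5-fold. Without the median subtraction, ATF3 was at -0.89 and ASNS at -0.71, and both were called lower. Both genes were under 10 CPM in 72 h DMSO (8.15 CPM for ATF3, 7.96 CPM for ASNS). They passed the minimum through 24 h DMSO, the library where they were higher. The members called higher in 72 h DMSO were 2 of the 10, DDIT4 at 1.20 and CEBPB at 0.84 (0.43 and not called without the subtraction), against 17.7% of all 8077 genes. None was lower, against 5.57% of all genes. Without the subtraction, 6.43% of all genes were called higher and 25.1% lower in 72 h DMSO.

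Set against 24 h DMSO, a comparison that differs in both drug and time, 72 h paclitaxel was higher for 6 of the 10 members, against 17.6% of 8431 genes. It was lower for none, against 10.3%. Here ATF3 had a relative log2 ratio of 2.50 (2.40 to 2.60), DDIT4 of 2.08, DDIT3 of 1.89, PPP1R15A of 1.52, ASNS of 1.35 and CEBPB of 1.13. TRIB3 fell under 1.5-fold at 0.47. The comparison of the 2 paclitaxel libraries called 5 of the 10 members higher at 72 h, against 9.97% of 8335 genes, and none lower, against 3.67%. Those were ATF3 at 2.01, DDIT3 at 1.62, DDIT4 at 1.44, PPP1R15A at 1.43 and ASNS at 0.59, the last called in 8 of 13 alternatives. These comparisons share libraries with those above and are not independent of them.

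To compare shares of cells at 1 depth, each cell was thinned to 1 fixed number of UMIs, below the depth of most cells, which left 468 cells of 72 h paclitaxel, 760 of 72 h DMSO, 733 of 24 h paclitaxel and 1067 of 24 h DMSO. ATF3 was detected in 59.0% (54.4 to 63.5) of cells in 72 h paclitaxel, 15.1% (12.7 to 17.9) in 72 h DMSO, 28.9% in 24 h paclitaxel and 24.5% in 24 h DMSO. DDIT3 was detected in 53.2% (48.6 to 57.8) of cells in 72 h paclitaxel, 22.0% (19.1 to 25.1) in 72 h DMSO, 29.6% in 24 h paclitaxel and 28.5% in 24 h DMSO. Both transcripts were thus detected in more cells of 72 h paclitaxel, where a thinned cell held a mean of 2.18 ATF3 and 1.46 DDIT3 UMIs, against 0.189 ATF3 and 0.328 DDIT3 UMIs in 72 h DMSO. In unthinned cells the shares for ATF3 were 77.9% in 72 h paclitaxel and 32.8% in 72 h DMSO, and those for DDIT3 were 74.0% in 72 h paclitaxel and 43.4% in 72 h DMSO. The libraries hold 1 cell line, so the share that free RNA gives in a cell type without these genes was not measured.

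The remaining members differed in how far detection moved. In 72 h paclitaxel ASNS was detected in 43.2% of cells, PPP1R15A in 64.3%, CHAC1 in 15.6%, SESN2 in 18.8%, TRIB3 in 64.7% and DDIT4 in 69.7%. In 72 h DMSO ASNS was detected in 13.2% of cells, PPP1R15A in 38.6%, CHAC1 in 2.89%, SESN2 in 8.68%, TRIB3 in 49.2% and DDIT4 in 60.9%. All 6 were detected in a larger share of the thinned cells of 72 h paclitaxel. In unthinned cells DDIT4 was at 84.8% (81.4 to 87.8) in 72 h paclitaxel and 84.3% (81.6 to 86.8) in 72 h DMSO. The others of the 6 kept the higher share in 72 h paclitaxel without thinning. CEBPB was detected in 89.3% of cells in 72 h paclitaxel and 89.7% in 72 h DMSO, and ATF4 in 98.1% in 72 h paclitaxel and 99.7% in 72 h DMSO, near the ceiling of this measure. At 24 h the share was higher in paclitaxel for ASNS (29.9% in paclitaxel, 22.4% in DMSO), DDIT4 (48.3% in paclitaxel, 41.5% in DMSO) and CEBPB (88.8% in paclitaxel, 79.6% in DMSO). The share was lower for PPP1R15A, at 39.3% (35.7 to 42.9) in paclitaxel and 45.6% (42.6 to 48.7) in DMSO. It was also lower for TRIB3, at 60.8% (57.2 to 64.4) in paclitaxel and 65.1% (62.2 to 68.0) in DMSO. Both pairs of intervals overlapped. Thinned to 10000 UMIs, PPP1R15A was at 24.1% in paclitaxel and 23.1% in DMSO, while TRIB3 stayed lower. Within the stricter cell limits above, TRIB3 was at 63.1% in paclitaxel and 63.2% in DMSO, while PPP1R15A stayed lower. In unthinned cells both were lower in paclitaxel (PPP1R15A 68.9%, TRIB3 83.4%) than in DMSO (76.2%, 89.2%).

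**Figure D3:**
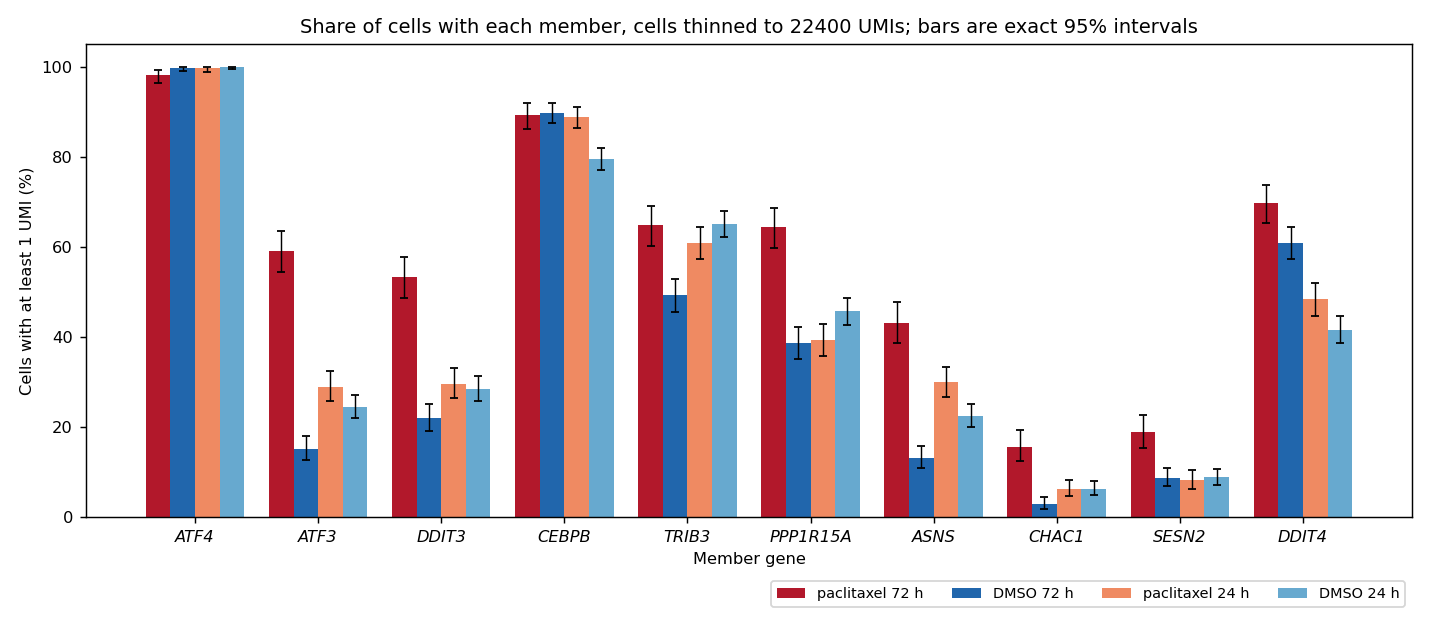
Share of cells with at least 1 UMI of each member after thinning every cell to 1 fixed number of UMIs, in percent, with exact 95% binomial intervals. ATF3 lies at 59.0% in 72 h paclitaxel and 15.1% in 72 h DMSO.

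The richest single cell in 72 h paclitaxel had 141 ATF3 UMIs, which is 4.87% of the library's ATF3. After thinning, the richest cell of that library had 137 ATF3 UMIs, against a mean of 2.18, a median of 1 and a 90th percentile of 5. So 1 cell weighs more on the thinned ATF3 means, those by ribosomal share further on included.

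Counted per cell, at least 5 of the 10 members were detected in 79.7% (75.8 to 83.3) of thinned cells in 72 h paclitaxel and 31.4% (28.2 to 34.9) in 72 h DMSO. At 24 h the shares were 45.3% in paclitaxel and 40.02% in DMSO. At least 7 members were detected in 32.9% of cells in 72 h paclitaxel, 2.50% in 72 h DMSO, 8.73% in 24 h paclitaxel and 4.87% in 24 h DMSO. The median number was 6 in 72 h paclitaxel and 4 in each of the other libraries.

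**Figure D4:**
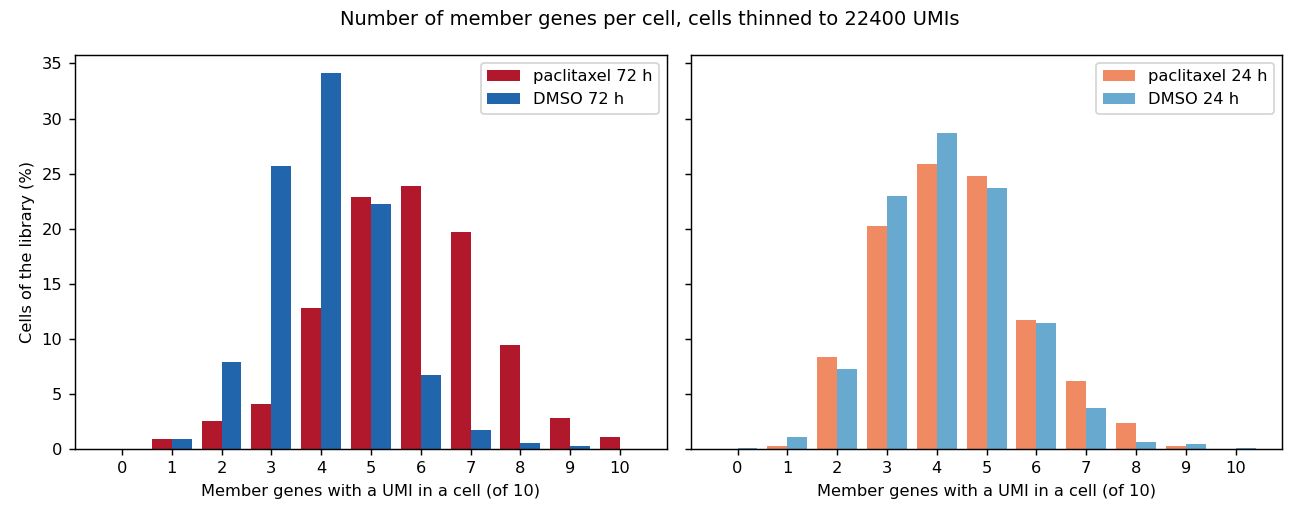
Number of members detected per thinned cell (0 to 10), as a percent of cells, at 72 h (left) and 24 h (right). The paclitaxel library at 72 h has a median of 6 members and the DMSO library a median of 4.

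ATF3 and DDIT3 were detected together in 34.8% of cells in 72 h paclitaxel (163 cells) and in 3.55% in 72 h DMSO (27 cells). Neither was detected in 22.6% of cells in paclitaxel and 66.4% in 72 h DMSO. In 72 h paclitaxel, DDIT3 was found in 59.1% (53.0 to 64.9) of cells with ATF3 and in 44.8% of cells without it. In 72 h DMSO the share was 23.5% with ATF3 and 21.7% without, in 24 h paclitaxel 38.2% with and 26.1% without, and in 24 h DMSO 32.6% with and 27.2% without. The intervals with and without ATF3 did not overlap in 72 h paclitaxel (53.0 to 64.9 with, 37.6 to 52.1 without) or 24 h paclitaxel, and overlapped in both DMSO libraries; the libraries' gaps were not tested against each other. In 72 h paclitaxel, cells with both transcripts had a mean of 4.14 DDIT4 UMIs and 2.30 PPP1R15A UMIs. Cells with neither had 1.99 DDIT4 UMIs and 1.25 PPP1R15A UMIs. ASNS differed less, with 0.939 UMIs in cells with both and 0.830 in cells with neither, as did CHAC1, with 0.221 and 0.189. Their median ribosomal share was 26.3% with both transcripts and 30.3% with neither, and its part in this difference was not tested.

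Across the 45 pairs of members, the mean Pearson correlation of log2(UMI + 1) over thinned cells was 0.12 in 72 h paclitaxel, 0.06 in 72 h DMSO, 0.08 in 24 h paclitaxel and 0.05 in 24 h DMSO. The highest r of a pair was 0.22, in 72 h paclitaxel for DDIT3 with TRIB3 and in 72 h DMSO for DDIT3 with CHAC1. ATF3 and DDIT3 had an r of 0.19 in 72 h paclitaxel, 0.09 in 72 h DMSO, 0.12 in 24 h paclitaxel and 0.13 in 24 h DMSO. In unthinned cells the order turned, with an r of 0.16 in 72 h paclitaxel and 0.30 in 72 h DMSO. The points of a library share its preparation, and correlations this weak in sparse counts are no finding.

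Some members also varied with the ribosomal share inside a library. With the cells of 72 h paclitaxel split into 3 equal groups by ribosomal share, ATF3 had a mean of 3.85 UMIs in the group with the lowest share (median 20.02%) and 1.13 in the group with the highest (median 35.9%). DDIT3 had 2.06 in the group with the lowest share and 1.09 in that with the highest. TRIB3 had 2.13 and 0.872 in those groups, SESN2 0.385 and 0.154, and CHAC1 0.276 and 0.135. ATF4 had 12.5 and 12.3 in those groups and CEBPB 4.68 and 4.63, and in 24 h DMSO DDIT4 ran the other way, with 0.522 in the lowest and 0.812 in the highest. In 72 h DMSO ATF3 had 0.276 UMIs in the group with the lowest share (median 34.5%) and 0.115 in that with the highest. ATF3 was at 1.13 UMIs in the highest group of 72 h paclitaxel (median share 35.9%) and 0.276 in the lowest group of 72 h DMSO (34.5%). The part of the ribosomal share in the difference between the libraries was not tested.

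The genes most like an anchor were taken as the 6 with the highest mean correlation over the 4 libraries among 9428 genes detected in at least 10% of thinned cells of each library. For ATF3 they were PIM1 (mean r 0.18), JUN (0.17), CD55 (0.16), EDN1 (0.15), CDKN1A (0.15) and HERPUD1 (0.14), with DDIT3 at rank 10 and PPP1R15A at rank 20. For DDIT3 they included BTG1 (0.21), SLC3A2 (0.19), PTGES3 (0.18), LLPH (0.17) and ATG101 (0.17), with DDIT4 at rank 11 and ATF3 at rank 21. The median over all genes was 0.01 for each anchor. Several of these means were carried by 72 h paclitaxel, where PIM1 had an r with ATF3 of 0.35, against 0.05 in 72 h DMSO, and these rankings of weak correlations are a description.

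Of the 50 genes most like DDIT3, 31 lie on its own chromosome 12 (62.0%). Among the 8999 candidates with 1 known position, 5.45% lie on chromosome 12. For ATF3, 15 of the 50 most like it lie on chromosome 1, against 10.5% of candidates. This look at chromosomes was added after the genes had been seen. The mean r of DDIT3 with genes of its own chromosome exceeded that with genes of other chromosomes by 0.096 in 72 h paclitaxel, 0.014 in 72 h DMSO, 0.038 in 24 h paclitaxel and 0.016 in 24 h DMSO. The median of this difference over 8997 genes was 0.048 in 72 h paclitaxel, 0.005 in 72 h DMSO, 0.012 in 24 h paclitaxel and 0.005 in 24 h DMSO. So the same-chromosome excess was also higher for the median gene in 72 h paclitaxel, and ATF3, at 0.031 there, lay under that median. DDIT3 lay under the 95th percentile of all genes in 72 h paclitaxel (0.113), 72 h DMSO (0.016) and 24 h DMSO (0.017). It lay above that percentile in 24 h paclitaxel (0.029). ATF4, at 0.170 in 72 h paclitaxel and 0.034 in 72 h DMSO, lay above the 95th percentile of all genes in each.

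**Figure D5:**
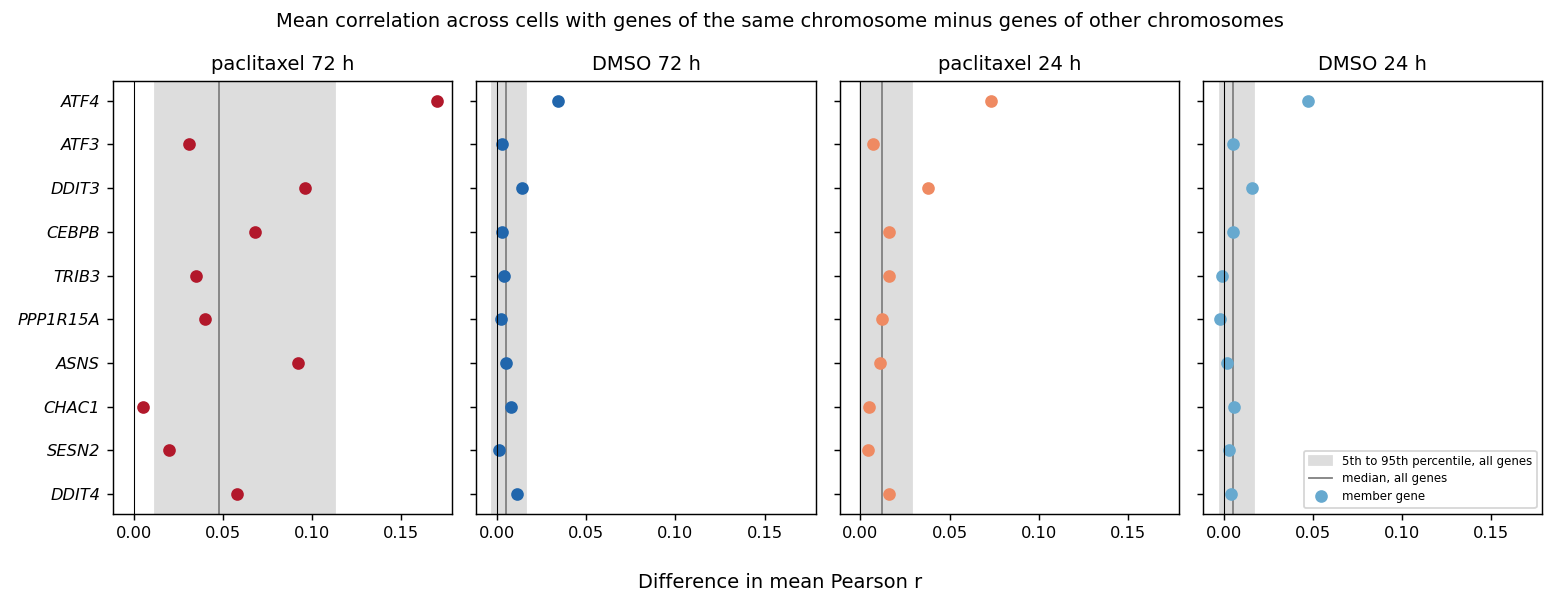
Mean correlation with genes of the same chromosome minus that with genes of other chromosomes, for each member (dots) in each library. The grey line and band are the median and the 5th to 95th percentile of all genes. DDIT3 lies at 0.096 in 72 h paclitaxel, where the median gene lies at 0.048 and the 95th percentile at 0.113.

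Other genes of the response were described with lists chosen by role, and counts are over list genes with at least 10 CPM. In each list the number called higher at 72 h stands beside the 9.94% of all genes called higher. Among stress and death effectors, 10 of 15 were called higher in 72 h paclitaxel than in 72 h DMSO and none lower, with a median relative log2 ratio of 0.83, against -0.04 over all genes. GADD45A, a growth arrest gene, was at 269 CPM in paclitaxel and 30.2 CPM in 72 h DMSO, a relative log2 ratio of 2.84. PMAIP1, which encodes the pro-apoptotic NOXA, was at 141 CPM in paclitaxel and 27.6 CPM in 72 h DMSO (2.03). STC2 and HMOX1, at 9.57 CPM and 4.16 CPM in 72 h DMSO, passed the minimum through the paclitaxel library. The secreted factor STC2 (1.96), the haem oxygenase HMOX1 (1.89), the autophagy gene MAP1LC3B (1.75) and NUPR1 (1.35) were also called higher. GDF15, a secreted stress factor, was under the minimum at 5.77 CPM in paclitaxel and 0.345 CPM in DMSO.

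Of 9 amino acid transporters, 4 were called higher at 72 h, among them SLC3A2, the heavy chain of several transporters, at a relative log2 ratio of 2.16. Of 11 genes of amino acid and one-carbon synthesis, 2 were called higher against 9.94% of all genes, the serine pathway enzymes PHGDH (1.01) and PSAT1 (0.79). Of 14 genes for tRNA synthetases and tRNA export, 3 were called higher, WARS (0.83), GARS (0.75) and YARS (0.60). No gene of these lists was lower than in 72 h DMSO. Against 24 h DMSO, 3 of 9 transporters, 2 of 11 synthesis genes and 1 of 14 synthetase and export genes were called higher. Of all genes, 17.6% were called higher there. Lower there was 1 transporter, against 10.3% of all genes. PSAT1 was at -0.04 and SLC3A2 at 1.45 in 72 h paclitaxel against 24 h DMSO.

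Of 15 genes of the eIF2 kinases and machinery, 3 were called higher at 72 h: EIF2AK2, which encodes the kinase PKR (0.76), EIF2S1 (0.68) and DNAJC3 (0.68). The kinase genes EIF2AK1 (-0.27) and EIF2AK4 (-0.51) were not called, and EIF2AK3 was under the minimum in both libraries. Of 10 other bZIP factors, 1 was called higher, XBP1 (1.11), a share near that of all genes. XBP1 is also in the next list. Of 16 chaperones and other genes of the endoplasmic reticulum, 6 were called higher, led by HERPUD1 (1.40), DNAJB9 (1.18), HSPA5 (1.12) and MANF (1.11), with DNAJB9 at 9.18 CPM in 72 h DMSO and past the minimum through the paclitaxel library. Against 24 h DMSO, HERPUD1 was at 1.63 and HSPA5 at 0.47 in 72 h paclitaxel, so the call on HSPA5 held against 72 h DMSO and not against 24 h DMSO. Against 24 h DMSO, 3 of the 16 endoplasmic reticulum genes were called higher and 3 lower, with a median of 0.04. Of 15 eIF2 genes 2 were higher and 1 lower, and of 10 other bZIP factors 2 were higher and 1 lower. Of 15 stress and death effectors, 13 were higher and 0 lower there. Of all genes, 17.6% were higher and 10.3% lower.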

How the data were processed

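The deposited values are raw UMI counts per gene symbol and cell barcode, 1 library per group; the submitters' processing notes name Cell Ranger 2.0 and GRCh38. The sources used here do not give how cells and genes were chosen; no listed gene had UMIs in fewer than 6 cells of a table, so an absent gene is not a measured 0.

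Barcodes with at least 500 genes and under 20% mitochondrial UMIs were kept, 3180 of 3194; the 14 left out exceeded the mitochondrial limit. UMIs were summed per library (34850724 to 72024235; a count of 0 allows at most 0.0417 to 0.0861 CPM, from 3 counts) and scaled to CPM. Ratios carry exact Clopper-Pearson intervals for 2 Poisson counts, CPM exact Poisson intervals and shares exact binomial intervals, all for counting error; differences of ratios carry normal-approximation intervals. No p-value was computed, since each group was 1 library.

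Cells were thinned without replacement to 1 fixed number of UMIs, leaving out 52, 23, 43 and 34 shallower cells of paclitaxel 72 h, DMSO 72 h, paclitaxel 24 h and DMSO 24 h. Scrublet in scanpy 1.11.5 marked 12, 9, 6 and 6 doublets in that order, which were kept. The rest used Python 3.11.15, scipy 1.17.1 and, for TMM factors, edgeR 4.0.16. Ratio scripts were tested on simulated counts. The members and lists were chosen with earlier results of these data known. The text names all members, up to 4 called genes per list with the highest relative ratio and the 6 genes most like ATF3 and DDIT3, of which 1 is not reported here; other genes were chosen after their values were seen.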

Additional observations from a re-analysis of the deposited data

How the results depend on the processing

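No called value changed sign under any alternative tried. Over 13 alternatives that change scaling or cells, the relative log2 ratio of 72 h paclitaxel against 72 h DMSO ran from 2.45 to 3.75 for ATF3, 1.44 to 2.49 for DDIT3, 1.45 to 1.95 for PPP1R15A, 1.53 to 2.19 for ASNS and 0.68 to 1.47 for DDIT4, all called higher each time. TRIB3 ran from 0.31 to 1.08 and lost its call among cells with 30% to 36% ribosomal UMIs and in thinned cells without MKI67 and TOP2A (0.56). With a minimum of 50 CPM, 72 h paclitaxel had 3 members called higher against each other library. Of all genes, 10.3% were called higher against 72 h DMSO, 7.60% against 24 h paclitaxel and 15.2% against 24 h DMSO. Members under that mean could not be called, such as ATF3 (45.6 CPM), DDIT3 (42.5 CPM) and ASNS (20.2 CPM) against 72 h DMSO. In 24 h paclitaxel against 24 h DMSO, 1 member was called higher with that minimum (7.14% of all genes). It was 1 in cells without MKI67 and TOP2A (7.51%) and 1 with per-cell CPM without subtraction of the median (4.46%). At 2-fold it was 0 (1.47%), where no p-value or other tool applies. In 72 h DMSO against 24 h DMSO, 1 member was called higher with no subtraction (6.43% of all genes). It was also 1 with TMM (9.32%) or per-cell CPM (6.42%) without subtraction, at 50 CPM (16.2%), at 2-fold (6.34%) and in the ribosomal band (10.1%). In that comparison the members called lower were 2 with no subtraction, 1 with TMM without subtraction, 1 with totals without ribosomal and MT- genes without subtraction, 1 in cells without MKI67 and TOP2A, 3 with per-cell CPM without subtraction and 3 in the ribosomal band. Of all genes, 25.1% were lower with no subtraction, 15.7% with TMM without it and 25.0% with per-cell CPM without it. So 2 members of 8 measured with no subtraction is near the share of all genes. That share was 8.76% with totals without ribosomal and MT- genes without subtraction and 7.78% in cells without MKI67 and TOP2A. In the ribosomal band it was 3.21%, where ATF3 (-0.64), DDIT3 (-0.59) and ASNS (-1.09) were called lower. ATF3 was among the members at -0.60 to -1.63. Over all kept cells, ATF3 and ASNS passed the minimum of 10 CPM in this comparison only through 24 h DMSO, where they were higher. The cause of these changes was not tested.

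The share of cells with at least 5 members moved with depth. Without thinning it was 91.9% in 72 h paclitaxel, 76.5% in 72 h DMSO, 83.6% in 24 h paclitaxel and 85.9% in 24 h DMSO. Thinned to 10000 UMIs it was 38.5% in 72 h paclitaxel, 5.87% in 72 h DMSO, 14.6% in 24 h paclitaxel and 9.54% in 24 h DMSO. The mean r over member pairs in unthinned cells was 0.16 in 72 h paclitaxel, 0.12 in 72 h DMSO, 0.12 in 24 h paclitaxel and 0.09 in 24 h DMSO. The fits without subtraction other than the plain one, and the ribosomal band, were chosen after seeing the data. No paired analysis was possible because each group was 1 library and no test was made. Drug, culture and library preparation cannot be told apart, and UMI depth per cell limits the detection of CHAC1 and SESN2.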

Other observations

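The endoplasmic reticulum chaperones differed between the solvent libraries. In 72 h DMSO relative to 24 h DMSO, 8 of 15 were called lower and 0 higher, with a median relative log2 ratio of -0.59, against 0.13 over all genes, of which 5.57% were called lower. Of these, SDF2L1 was at 98.6 CPM in 72 h DMSO and 249 CPM in 24 h DMSO (-0.93), and CALR was at 145 CPM in 72 h DMSO and 350.2 CPM in 24 h DMSO (-0.87). HSPA5, the chaperone BiP, was at 53.7 CPM in 72 h DMSO and 108 CPM in 24 h DMSO (-0.59). In the same comparison 5 of 14 stress and death effectors were called higher and none lower, against 17.7% of all genes higher. Without subtraction of the median, 25.1% of all genes were called lower and 6.43% higher. TXNIP, which restrains thioredoxin, was at 81.2 CPM in 72 h DMSO and 13.2 CPM in 24 h DMSO (3.03), and KLHL24 was at 31.2 CPM in 72 h DMSO and 7.94 CPM in 24 h DMSO (2.38).

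TXNIP, KLHL24 and the pro-apoptotic BBC3 were also called higher in 24 h paclitaxel than in 24 h DMSO. Their relative log2 ratios there were 2.27 (2.16 to 2.37) for TXNIP, 1.65 (1.51 to 1.80) for KLHL24 and 1.42 (1.27 to 1.57) for BBC3. KLHL24 and BBC3 were under 10 CPM in 24 h DMSO, at 7.94 CPM and 7.97 CPM, and passed the minimum through the other library of each pair. The comparisons share the DMSO library at 24 h. The genes of these paragraphs were chosen after their values were seen.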
